A study of Mus musculus with 4 samples.

Results

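A group of 9 genes whose products hold back apoptosis was followed in the lymphoma transcriptomes of λ-MYC mice. They are *Bcl2*, *Bcl2l1*, *Bcl2l2*, *Mcl1*, *Bcl2a1a*, *Bcl2a1b* and *Bcl2a1d*, which encode anti-apoptotic members of the Bcl2 protein family, and *Xiap* and *Birc5*, which encode members of a separate family, the inhibitor of apoptosis proteins (IAPs). The 9 genes were listed by name and taken from the 34866 genes of the expression table by their gene identifiers. Of the 9, 7 reached the level required for testing, and *Bcl2a1a* and *Bcl2a1d* were listed at 0 in all libraries.

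RNA was sequenced from B220+ IgM+ splenocytes of 2 sick mice with IgM+ Tom+ tumors, called tumor #1 and tumor #2. Both mice were λ-MYC Tom+/ki. They carried the λ-MYC transgene (λ-MYC+/TG), a translocated human *MYC* gene driven by regulatory sequences of the immunoglobulin λ light chain, together with a Cre knock-in allele and the reporter R26tdTom+/ki. Cells in which Cre has acted keep tdTomato (Tom), and so do their descendants. From each spleen the Tom+ and the Tom- cells were sorted, which gave 4 libraries, 1 of each kind per tumor. Non-tumor B cells were not analysed here, the ages of the 2 mice are not given in the sources used here, and each tumor is 1 mouse. Expression is in TPM, the abundance of a gene's transcripts after correction for their length and scaling to the same total in each library. Such levels can be set side by side between genes of a library, but read numbers are lost in the scaling. The depth behind a value is therefore unknown.

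Apoptosis through mitochondria is set off when BAX and BAK form pores in the outer mitochondrial membrane. BCL2, BCL-XL (*Bcl2l1*), BCL-W (*Bcl2l2*), MCL1 and A1 (*Bcl2a1*) hold these effectors and the BH3-only proteins that activate them in check. XIAP binds and inhibits caspases further down the pathway, and survivin (*Birc5*) is best known as a subunit of the chromosomal passenger complex in mitosis. High MYC activity drives both proliferation and apoptosis in B cells, and *Mcl1*, *Bcl2l1* and *Bcl2* have each been studied as survival genes of MYC-driven lymphoma.

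Of the genes listed as markers of the labelled B cells (*Ms4a1*, *Cd79a*, *Cd79b*, *Pax5*, *Ptprc* and *Ighm*), 6 of 6 were at 20.5 TPM or more in each library. Their levels summed, Tom- cells first, to 1969 and 1866 TPM for tumor #1 but 3839 and 4914 TPM for tumor #2. Most of these sums was *Ighm*, at 1334 and 1255 TPM against 2191 and 3652 TPM. Each of the 6 was higher in both libraries of tumor #2. Within tumor #2 only *Ighm* rose from Tom- to Tom+ cells, and the other markers fell. The sums of the markers of T cells, NK cells, macrophages, neutrophils and megakaryocytes were at most 8.27 TPM in any library, and *Ncr1*, *Klrd1*, *Elane*, *Ly6g*, *Pf4* and *Ppbp* were at 0 in all 4. T cell markers summed to 0.398 and 0.398 TPM for tumor #1 against 8.27 and 3.93 TPM for tumor #2. Macrophage markers summed to 2.40 and 4.71 TPM against 7.94 and 7.04 TPM. Neutrophil markers were at 0.239 and 0.0628 TPM against 5.56 and 0.102 TPM, and megakaryocyte markers at 0.120 and 2.35 TPM against 0.0601 and 0 TPM. Erythroid markers summed to 21.5 and 17.6 TPM for tumor #1 against 0.804 and 1.14 TPM in tumor #2, and plasma cell markers to between 13.0 and 20.1 TPM in 3 libraries against 231 TPM in the Tom+ cells of tumor #2, of which 209 TPM was *Jchain*. The plasma cell marker *Sdc1* went the other way, at 1.95 and 1.78 TPM in tumor #1 against 0 and 0.428 TPM in tumor #2. *Trp53*, the gene of the tumor suppressor p53, stood at 86.2 and 99.5 TPM in the libraries of tumor #1 against 0.0870 and 0.145 TPM in those of tumor #2, whereas mouse *Myc* lay between 38.1 and 45.6 TPM in the 4 libraries. Reads were quantified on mouse transcripts, and the part of the human *MYC* transgene in the mouse *Myc* values was not tested.

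*Mcl1* and *Bcl2* were the members that passed the test between the tumors and *Birc5* the most abundant member that was lower, so the 250 bases before their RefSeq start sites (GRCm38.p6) are given here, 5′ to 3′ along the strand of the gene. Capitals mark 2 motifs searched on both strands, the cell cycle genes homology region core (CHR, TTTGAA, read as TTCAAA on the other strand) and the κB consensus site, whose letters are those in capitals in the *Birc5* promoter. *Mcl1* lies at chr3:95658788-95663176 on the + strand, *Bcl2* at chr1:106538178-106714274 on the - strand and *Birc5* at chr11:117849251-117855743 on the + strand.
Mcl1 promoter, chr3:95658471-95658720, + strand: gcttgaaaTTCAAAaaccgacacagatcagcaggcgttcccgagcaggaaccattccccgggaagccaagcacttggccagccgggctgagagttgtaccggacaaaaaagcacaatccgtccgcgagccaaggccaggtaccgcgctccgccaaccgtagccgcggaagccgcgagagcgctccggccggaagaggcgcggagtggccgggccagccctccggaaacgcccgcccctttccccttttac
Bcl2 promoter, chr1:106714291-106714540, - strand: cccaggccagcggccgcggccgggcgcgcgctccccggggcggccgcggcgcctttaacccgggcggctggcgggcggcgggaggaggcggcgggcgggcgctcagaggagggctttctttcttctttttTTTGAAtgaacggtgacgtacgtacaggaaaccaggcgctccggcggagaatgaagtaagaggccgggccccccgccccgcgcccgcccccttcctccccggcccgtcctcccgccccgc
Birc5 promoter, chr11:117848987-117849236, + strand: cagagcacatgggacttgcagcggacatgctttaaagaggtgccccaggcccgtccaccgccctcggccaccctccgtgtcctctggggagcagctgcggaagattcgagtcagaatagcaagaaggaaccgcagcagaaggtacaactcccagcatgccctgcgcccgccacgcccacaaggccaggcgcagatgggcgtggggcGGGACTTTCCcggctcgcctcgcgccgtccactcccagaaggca

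All 9 members had at least 1 RefSeq promoter, 13 promoters in all. The CHR letters were found in 6 of the 13, those of *Bcl2*, *Mcl1*, the duplicated *Bcl2a1a*, *Bcl2a1b* and *Bcl2a1d*, and 1 of the *Xiap* promoters, against 16.0% of 32851 mouse promoters of the same length. The κB letters were found in 1 of the 13, that of *Birc5*, against 0.14% of all promoters, and this match partly overlaps a GC box (GGGCGG). A GC box was present in 9 of the 13, against 32.7% of all. Neither the E-box bound by MYC (CACGTG, 6.02% of all promoters) nor the letters CCAAT (33.8%) occurred in any of the 13. These matches describe letters in 1 window and were not tested for binding.

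The 3 *Bcl2a1* copies are close duplicates on chromosome 9, and a read of one copy can match another. The first 60 coding bases of each are given below, from exon 1 in GENCODE M21 on GRCm38, with capitals at the 6 positions where the copies differ.
Bcl2a1a, chr9:88957051-88957110, + strand: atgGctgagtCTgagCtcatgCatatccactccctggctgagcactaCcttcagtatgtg
Bcl2a1b, chr9:89199360-89199419, + strand: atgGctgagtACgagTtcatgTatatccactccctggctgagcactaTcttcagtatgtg
Bcl2a1d, chr9:88731660-88731719, - strand: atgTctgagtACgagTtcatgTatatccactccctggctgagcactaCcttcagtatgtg

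Over the whole coding sequence of 516 bases, *Bcl2a1a* and *Bcl2a1b* differed at 11 positions (97.9% identity), *Bcl2a1a* and *Bcl2a1d* at 7 (98.6%) and *Bcl2a1b* and *Bcl2a1d* at 6 (98.8%). With positions counted from 1 at the A of the start codon, the stretch shown holds the changes C11A, T12C, C16T, C22T and C48T from *Bcl2a1a* to *Bcl2a1b*, and G4T and T48C from *Bcl2a1b* to *Bcl2a1d*. The reads were 60 bases long. Of all 60-base stretches in the annotated transcripts, 63.3% of *Bcl2a1a*, 74.9% of *Bcl2a1b* and 74.3% of *Bcl2a1d* also occurred in a transcript of another gene. By contrast, none of the stretches of *Mcl1* and *Bcl2l1*, 0.565% of those of *Xiap*, 1.12% of *Birc5*, 4.85% of *Bcl2* and 11.9% of *Bcl2l2* did so. The *Bcl2l2* stretches were shared with *Gm20521*, which was listed at 0 in all 4 libraries, and those of *Bcl2* with *D630008O14Rik*, for which no value was used here.

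**Figure D1:**
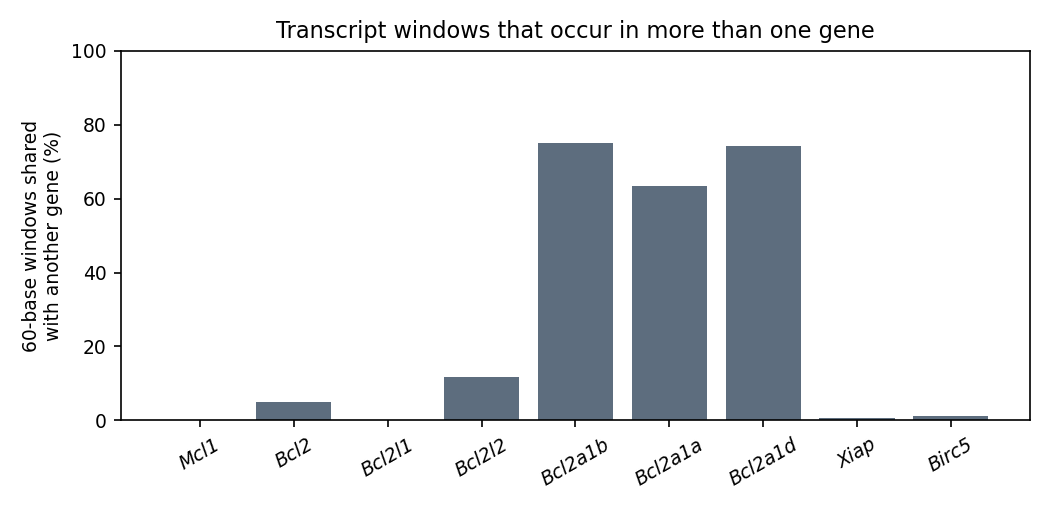
Share of 60-base stretches of each member's annotated transcripts (y axis, percent) that also occur in a transcript of another gene, for the 9 members (x axis). The 3 *Bcl2a1* copies stand between 63.3% and 74.9%, and the other members at 11.9% or less.

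The balance of *Mcl1* and *Birc5* among the anti-apoptotic transcripts differed more between the tumors than between Tom+ and Tom- cells. Summed TPM of the 9 members was 129 and 133 in tumor #1 and 196 and 198 in tumor #2, Tom- cells first. In tumor #1 *Birc5* held 52.1% and 51.3% of this sum and *Mcl1* 36.8% and 37.7%. In tumor #2 the order was turned round, with *Mcl1* at 73.2% and 72.1% and *Birc5* at 15.0% and 10.4%. *Xiap* held 6.57% to 9.28% in the 4 libraries. Among the 7 Bcl2 family members alone, *Mcl1* made up 92.3% and 89.5% of the transcripts in tumor #1 and 93.5% and 89.8% in tumor #2, so that this share differed more between Tom- and Tom+ cells than between the tumors. *Bcl2l2* went from 2.71% to 8.10% of the family's transcripts in tumor #1 and from 0.343% to 0.554% in tumor #2, while *Bcl2l1* went from 3.31% to 1.74% and from 1.70% to 4.46%, Tom- cells first. Ranked by TPM among protein-coding genes, *Mcl1* stood at percentiles 91.8 to 97.4, while *Bcl2* stood at 54.7 and 52.6 in tumor #1 and at 66.0 and 68.8 in tumor #2.

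**Figure D2:**
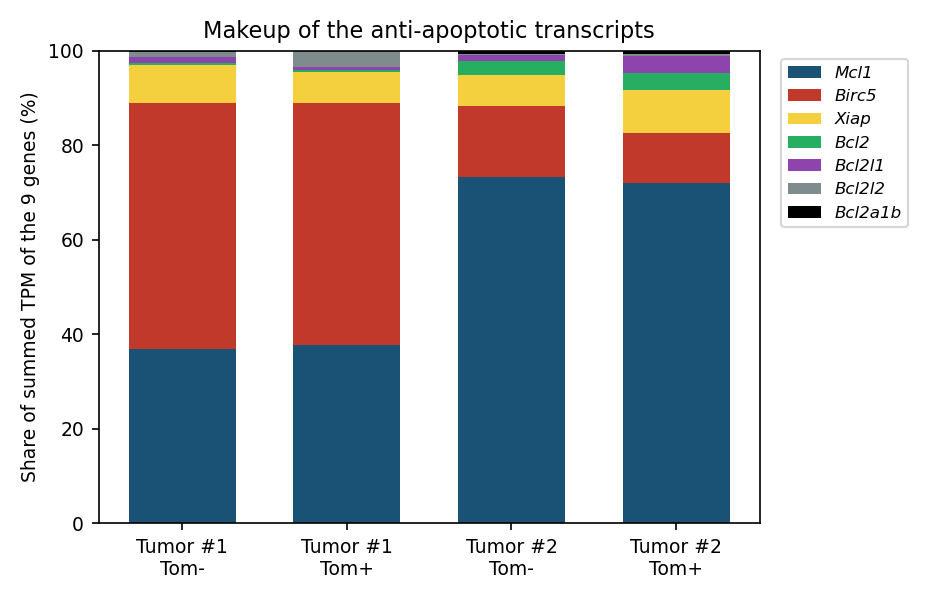
Share of the summed TPM of the 9 members (y axis, percent) held by each gene in each of the 4 libraries (x axis). *Mcl1* takes 36.8% and 37.7% in tumor #1 and 73.2% and 72.1% in tumor #2, and *Birc5* goes from 52.1% and 51.3% to 15.0% and 10.4%.

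The first comparison asked whether Tom+ cells differed from Tom- cells of the same tumor. No anti-apoptotic gene passed the test between Tom+ and Tom- cells. The test was limma on log2(TPM + 1) with the tumor as a block, over the 11339 genes for which 2 or more libraries reached a TPM of 1, with Benjamini-Hochberg adjustment. It called 0 of the 7 members, and 0 had an unadjusted p below 0.05. Over all tested genes 0 (0.0%) passed the adjusted threshold and 530 (4.67%) the unadjusted one, and the smallest adjusted p was 0.936. The median Tom+ minus Tom- log2 difference of the members was 0.064, against -0.033 over all tested genes. With 2 pairs an exact paired permutation test cannot go below 0.5, so only the fit across all genes could have called a gene.

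*Mcl1*, which encodes a short-lived protein on which B cells depend throughout their development, was at 47.4 (Tom-) and 50.0 TPM (Tom+) in tumor #1 against 144 (Tom-) and 143 TPM (Tom+) in tumor #2. The Tom+ and Tom- values of a tumor lay close together, and the tumors did not overlap. Its Tom+ minus Tom- log2 difference was 0.031 ± 0.13 (SE, adjusted p = 0.989 in limma), with 0.075 in tumor #1 and -0.012 in tumor #2.

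*Bcl2*, the founding member of the family, was at 0.519 (Tom-) and 0.368 TPM (Tom+) in tumor #1 against 5.55 (Tom-) and 6.95 TPM (Tom+) in tumor #2. Tom+ cells were the lower library in tumor #1 and the higher one in tumor #2. The log2 difference was 0.064 ± 0.25 (SE, adjusted p = 0.989 in limma).

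*Bcl2l1* (chr2:152780668-152831728, - strand), which encodes the anti-apoptotic protein BCL-XL, was at 1.70 (Tom-) and 0.970 TPM (Tom+) in tumor #1 against 2.61 (Tom-) and 7.09 TPM (Tom+) in tumor #2. Its highest library was the Tom+ cells of tumor #2 and its lowest the Tom+ cells of tumor #1. The log2 differences of -0.46 and 1.16 in the tumors averaged 0.35 ± 0.50 (SE, adjusted p = 0.952 in limma), the widest error of the 7 tested members.

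*Bcl2l2* (chr14:54883377-54888234, + strand), which encodes BCL-W, was the 1 member with the same direction in both tumors. It was at 1.39 (Tom-) and 4.52 TPM (Tom+) in tumor #1 against 0.527 (Tom-) and 0.880 TPM (Tom+) in tumor #2. Tom+ cells were the higher library in 2 of 2 tumors, but the Tom- cells of tumor #1 lay above the Tom+ cells of tumor #2. The log2 difference was 0.75 ± 0.34 (SE, adjusted p = 0.936 in limma), with 1.21 in tumor #1 and 0.30 in tumor #2. Among all tested genes 51.2% had the same direction in both tumors, 21.6% higher and 29.5% lower in Tom+ cells.

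*Bcl2a1b* (chr9:89199209-89207827, + strand), a copy of the gene for A1, was at 0.357 TPM in Tom- cells of tumor #1, listed at 0 in its Tom+ cells, and in tumor #2 at 1.23 TPM (Tom-) and 1.33 TPM (Tom+). *Bcl2a1a* (chr9:88956900-88962419, + strand) and *Bcl2a1d* (chr9:88723285-88731914, - strand) were listed at 0 in each library, as was the related *Bcl2a1c*, and the part of the shared stretches in these zeros was not tested. *Gm29094*, a gene annotated across *Bcl2a1b* that shares 45.3% of its 60-base stretches, was at 0.225, 0, 0.0611 and 2.40 TPM in the same order of libraries. The Tom+ minus Tom- log2 difference of *Bcl2a1b* was -0.19 ± 0.28 (SE, adjusted p = 0.954 in limma), and it was 0.19 with the *Bcl2a1* copies and *Gm29094* summed to 1 feature, an alternative chosen after the values were seen. The direction for A1 thus differed between these 2 ways of summing.

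*Xiap* (chrX:42059679-42109656, + strand), whose product blocks caspases directly, was at 10.3 (Tom-) and 8.70 TPM (Tom+) in tumor #1 against 13.1 (Tom-) and 18.4 TPM (Tom+) in tumor #2. The Tom+ cells were lower in tumor #1 and higher in tumor #2, and the log2 difference was 0.12 ± 0.26 (SE, adjusted p = 0.966 in limma). *Birc5* was at 67.1 (Tom-) and 67.9 TPM (Tom+) in tumor #1 against 29.5 (Tom-) and 20.6 TPM (Tom+) in tumor #2. Its Tom+ minus Tom- log2 difference was -0.24 ± 0.20 (SE, adjusted p = 0.936 in limma). Opposite directions in the tumors were thus seen for 6 of the 7 tested members, against 47.3% of all tested genes. Some of these signs rest on values close to 0, such as 0.075 and -0.012 for *Mcl1* and 0.019 for *Birc5* in tumor #1.

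**Figure D3:**
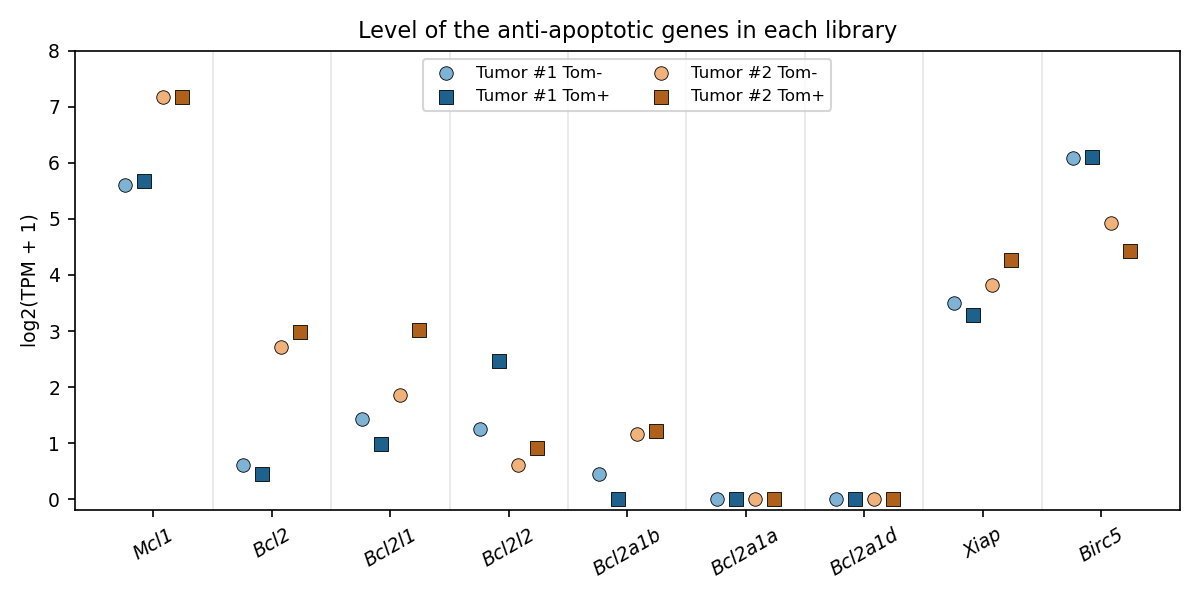
Level of each of the 9 members (x axis) in each library as log2(TPM + 1) (y axis), with circles for Tom- and squares for Tom+ cells, tumor #1 in blue and tumor #2 in orange. *Mcl1* and *Bcl2* are higher in both libraries of tumor #2 and *Birc5* is lower in both, while Tom+ and Tom- symbols of a tumor lie close together for *Mcl1* and *Bcl2*.

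The partners of these genes were read in the same fit, from 8 lists of apoptosis and mitosis genes with 49 genes in all. No gene of any list passed the adjusted or the unadjusted threshold between Tom+ and Tom- cells. The effector genes *Bax* and *Bak1* had opposite signs in the tumors. *Bax* was at 166 (Tom-) and 152 TPM (Tom+) in tumor #1 against 99.4 (Tom-) and 162 TPM (Tom+) in tumor #2, with log2 differences of -0.13 and 0.70. *Bak1* had log2 differences of 0.10 in tumor #1 and -0.73 in tumor #2. *Bmf*, a BH3-only gene, had the largest Tom+ minus Tom- value of its list at -0.60 ± 0.28 (SE, adjusted p = 0.936 in limma) and was lower in Tom+ cells of 2 of 2 tumors, at -0.98 in tumor #1 and -0.22 in tumor #2. The IAP gene *Naip2* was at -0.27, *Birc2* at 0.10 and the IAP antagonists *Diablo* and *Xaf1* at -0.13 and 0.067 on the log2 scale, none of them past the threshold. Other named members of the lists were *Bad* at -0.26, *Bcl2l12* at -0.20, *Bcl2l13* at -0.36, *Huwe1* at 0.32, *Trib1* at 0.33, *Aurkb* at -0.34, *Incenp* at -0.24, *Bub1* at -0.44 and *Ccnb1* at -0.28, likewise without a call.

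Between the tumors the log2 differences were larger in size for each of the 7 tested members. Of these, 3 had reached 1 TPM in the libraries of 1 tumor alone, *Bcl2* and *Bcl2a1b* in tumor #2 and *Bcl2l2* in tumor #1, so that the filter on low values already fixed the separation of the tumors for them. The other 4, *Mcl1*, *Bcl2l1*, *Xiap* and *Birc5*, also had both libraries of 1 tumor above both of the other, 3 of them higher in tumor #2 and 1 lower, against 65.5% without overlap among the 10346 genes that likewise did not pass through 1 tumor alone (68.5% of all tested genes, 44.8% higher and 23.7% lower in tumor #2). Of the 4, *Mcl1* passed the adjusted threshold, against 3.15% of those 10346 genes, and 2 had an unadjusted p below 0.05, against 32.3%. *Bcl2* was the other called member. Of all tested genes 4.33% were called, 3.37% higher and 0.961% lower in tumor #2. The median difference of the 4 was 0.94 on the log2 scale and that of all 7 was 0.97, the value of *Bcl2a1b*, against 0.16 over the 10346 genes and 0.20 over all tested genes. Each tumor is 1 mouse and its Tom- and Tom+ libraries serve as the repeats, so these p-values measure 2 tumors only, and the mouse, the tumor clone and any batch that goes with them cannot be told apart. In sorted bulk cells, fewer cells of a type and less RNA per cell cannot be told apart either.

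*Mcl1* rose 2.94-fold in mean TPM, from 48.7 ± 1.82 TPM in tumor #1 to 143 ± 0.833 TPM in tumor #2 (SD, n = 2 libraries each). Its log2 difference was 1.54 ± 0.13 (SE, adjusted p = 0.0464 in limma), with 1.58 in Tom- and 1.49 in Tom+ cells. *Bcl2* rose from 0.444 ± 0.107 TPM to 6.25 ± 0.989 TPM (SD, n = 2 libraries each), a log2 difference of 2.32 ± 0.25 (SE, adjusted p = 0.0496 in limma) with 2.11 in Tom- and 2.54 in Tom+ cells. This call is of a gene that entered the test only through tumor #2, where it was high, and the difference was 3.55 with a pseudocount of 0.1. Both calls lie close to the threshold and were lost under several alternatives, with adjusted p between 0.0126 and 0.119 over 14 alternatives for *Mcl1* and between 0.0160 and 0.130 over 13 for *Bcl2*.

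The remaining members did not pass the adjusted threshold. *Birc5* was 2.69 times as abundant in tumor #1, with a log2 difference of -1.41 ± 0.20 (SE, adjusted p = 0.0593 in limma), and was called in 4 of 14 alternatives. *Bcl2l2* had a log2 difference of -1.10 ± 0.34 (SE, adjusted p = 0.128 in limma). *Bcl2l1*, *Bcl2a1b* and *Xiap* had log2 differences of 1.23 ± 0.50, 0.97 ± 0.28 and 0.66 ± 0.26 (SE), with adjusted p of 0.189, 0.118 and 0.174 in limma. For *Bcl2l1* the difference was 0.42 in Tom- and 2.04 in Tom+ cells, and that of *Bcl2a1b* rests on levels of 1.33 TPM or less and lay between 0.49 with quantile normalization and 2.69 with a pseudocount of 0.1. The B cell, T cell and macrophage marker sums were also higher in both libraries of tumor #2 and the erythroid sum was lower there, as given above. The neutrophil marker sum was highest in the Tom- cells of tumor #2. The plasma cell marker sum was higher in the Tom+ cells of tumor #2, mostly through *Jchain*, while *Sdc1* was lower in tumor #2. The part of these markers in the differences of the members was not tested.

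**Figure D4:**
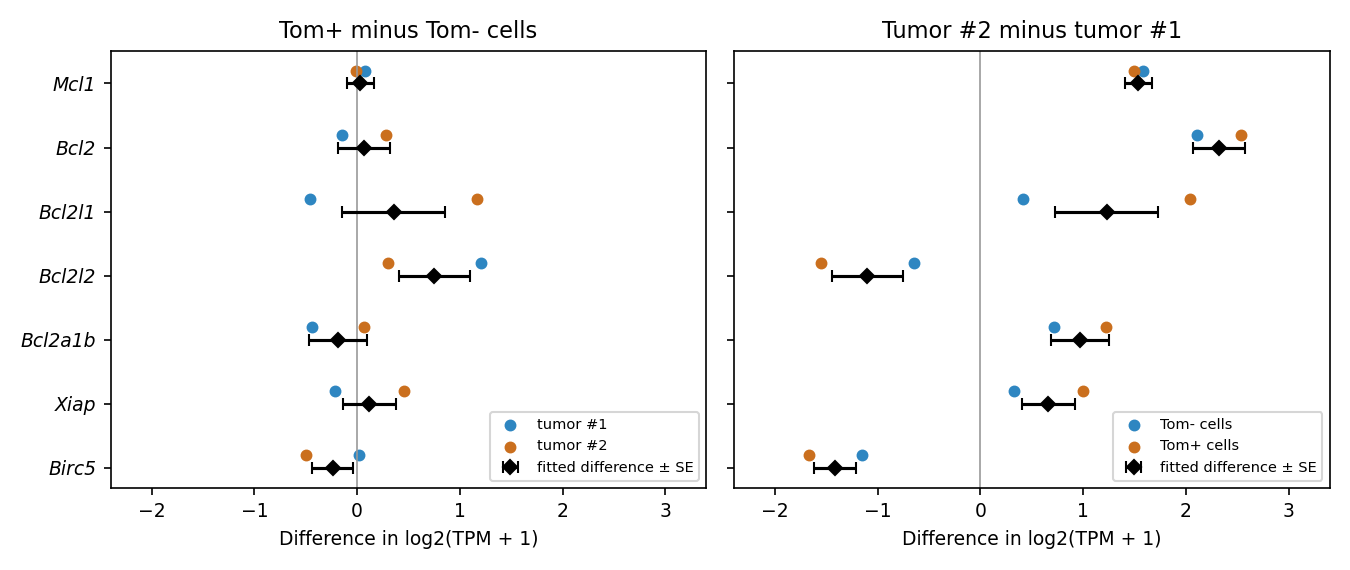
Difference in log2(TPM + 1) for the 7 tested members (y axis), Tom+ minus Tom- cells on the left and tumor #2 minus tumor #1 on the right (x axes), with 1 dot per tumor or per cell fraction and black diamonds for the fitted difference ± SE. Left, 6 of the 7 genes have dots on both sides of 0, and right, both dots of each gene lie on the same side.

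The scale of the libraries shifted the background but not the direction of the members. The median of all tested genes between the tumors was 0.20 with TPM as deposited, -0.10 after trimmed-mean scaling and -0.078 after quantile normalization of the libraries, and between 0.11 and 0.32 with immunoglobulin genes, mitochondrially encoded genes or pseudogenes left out. Relative to that median, *Mcl1* was higher in tumor #2 by 1.33 with TPM as deposited and by 1.30 to 1.54 over the 6 scalings, and *Bcl2* by 2.12 and by 1.88 to 2.38. For *Birc5* the value was -1.62, with a range from -1.66 to -1.51, and for *Bcl2l2* -1.31, with a range from -1.59 to -1.19. *Bcl2l1* lay between 0.86 and 1.12, *Bcl2a1b* between 0.57 and 1.01 and *Xiap* between 0.44 and 0.46 above the median.

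Of the 37 tested genes of the lists, 2 were called between the tumors (5.41%, against 4.33% of all tested genes), *Birc3* and *Ccnb1*. Among the IAP genes beside the members, *Birc3* (cIAP2), a ubiquitin ligase of the NF-κB pathway, rose from 25.4 and 22.8 TPM in the libraries of tumor #1 to 149 and 156 TPM in those of tumor #2, a log2 difference of 2.61 ± 0.15 (SE, adjusted p = 0.0444 in limma). All 4 tested genes of that list had positive differences, against 61.8% of all tested genes, 1 of them called, with a median of 0.91, and *Birc6* and *Birc2* had 1.13 and 0.68 without a call. Of the 4, *Naip2* was at 0.763 and 0.640 TPM in tumor #1 against 1.83 and 1.09 TPM in tumor #2. It reached 1 TPM in tumor #2 alone, so the filter on low values already fixed its sign with TPM as deposited. In quantile-normalized values *Naip2*, the lowest of the 4, was at -0.030. *Xaf1*, an antagonist of XIAP, was at 3.47 and 2.38 TPM in the libraries of tumor #1 against 20.4 and 29.99 TPM in those of tumor #2 (log2 difference 2.73 ± 0.32 SE, adjusted p = 0.0524 in limma), while the other tested antagonists *Diablo* and *Htra2* had 0.32 and -0.38, and *Diablo* was at -0.0077 with trimmed-mean scaling.

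Of the BH3-only genes, whose products bind the anti-apoptotic proteins, 5 of 6 tested had a positive and 1 a negative difference (61.8% and 38.2% of all tested genes), none called, with a median of 0.40. Of the 5, *Bbc3* was at 0.482 and 0.870 TPM in tumor #1 against 1.34 and 1.06 TPM in tumor #2. It reached 1 TPM in tumor #2 alone, so the filter on low values already fixed its sign with TPM as deposited. The sign of *Bad* turned with the scaling of the libraries, from 0.10 to -0.19 after trimmed-mean scaling and -0.30 after quantile normalization of the libraries, while *Bbc3* went from 0.40 to -0.18 in quantile-normalized values. *Bmf* was at 7.09 and 3.11 TPM in the libraries of tumor #1 against 24.9 and 21.2 TPM in those of tumor #2 (log2 difference 2.06 ± 0.28 SE, adjusted p = 0.0570 in limma). *Bcl2l11*, the gene for BIM, had 0.58. The effectors *Bax* and *Bak1* had -0.32 and -0.60 without a call, and for *Bax* the difference was -0.74 in Tom- and 0.090 in Tom+ cells. Related genes of the family, *Bcl2l12* and *Bcl2l13*, had 0.52 and 0.37.

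Set against these partners, the summed TPM of the 7 anti-apoptotic Bcl2 family members was 1.00 and 1.09 times that of the BH3-only genes in tumor #1 and 1.80 and 2.00 times in tumor #2. Against the effectors it was 0.241 and 0.276 times in tumor #1 and 1.09 and 0.851 times in tumor #2. *Mcl1* itself was 2.94-fold higher in mean TPM in tumor #2, and this enters each of its ratios to other genes. *Mcl1* also made up 89.5% to 93.5% of the family's summed TPM, so its difference enters the summed ratios as well. The share of all tested genes with a higher ratio in tumor #2 was not taken. The ratio of *Mcl1* to single BH3-only genes was higher in both libraries of tumor #2 for 5 of the 6 tested, *Bbc3* among them, which is not read as a result about these genes. Against *Pmaip1*, which encodes its partner NOXA, it was 9.08 and 9.30 in tumor #1 and 33.8 and 44.9 in tumor #2, the widest change of the 6, whereas against *Bmf* it was 6.69 and 16.1 in tumor #1 and 5.77 and 6.72 in tumor #2. The ratio of *Bcl2* to *Bcl2l11* was 0.0564 and 0.0439 in tumor #1 and 0.381 and 0.547 in tumor #2, with *Bcl2* a gene that reached 1 TPM in tumor #2 alone. None of these ratios was tested.

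In the list drawn up for the stability of the MCL1 protein, 4 of 7 genes had a positive and 3 a negative difference, with a median of 0.050 and no call. The gene at that median, *Usp9x*, was at -0.28 after trimmed-mean scaling and at -0.18 in quantile-normalized values. *Trib1*, whose part in MCL1 stability was not tested, had the largest value in the list, 1.30 ± 0.21 (SE, adjusted p = 0.0644 in limma). The ubiquitin ligase genes *Fbxw7* and *Huwe1* had 0.71 and 0.63.

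*Birc5* was set beside its mitotic partners. All 3 other genes of the chromosomal passenger complex had negative differences between the tumors, with *Incenp* at -0.89, *Cdca8* at -0.73 and *Aurkb* at -0.29, none called. For *Aurkb* the tumors overlapped, at 75.4 and 72.0 TPM in tumor #1 against 74.6 and 48.5 TPM in tumor #2. Its difference was -0.016 in Tom- and -0.56 in Tom+ cells. Of 10 mitosis genes, 10 had negative differences, 8 of them without overlap of the tumors, against 38.2% and 23.7% of all tested genes, with a median of -0.84 against 0.20 over all tested genes. *Ccnb1*, the gene of cyclin B1, fell from 79.4 and 71.4 TPM to 25.8 and 19.0 TPM, a log2 difference of -1.72 ± 0.16 (SE, adjusted p = 0.0475 in limma), and was the 1 gene of the list that was called, while the kinase gene *Bub1* had -1.12. The calls of *Ccnb1* and *Birc3* held in 9 and 10 of 14 alternatives, with adjusted p in limma between 0.0201 and 0.119 for *Ccnb1* and between 0.0106 and 0.119 for *Birc3*. Against *Birc5*, *Mcl1* stood at 0.707 and 0.736 times in tumor #1 and at 4.87 and 6.91 times in tumor #2.

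**Figure D5:**
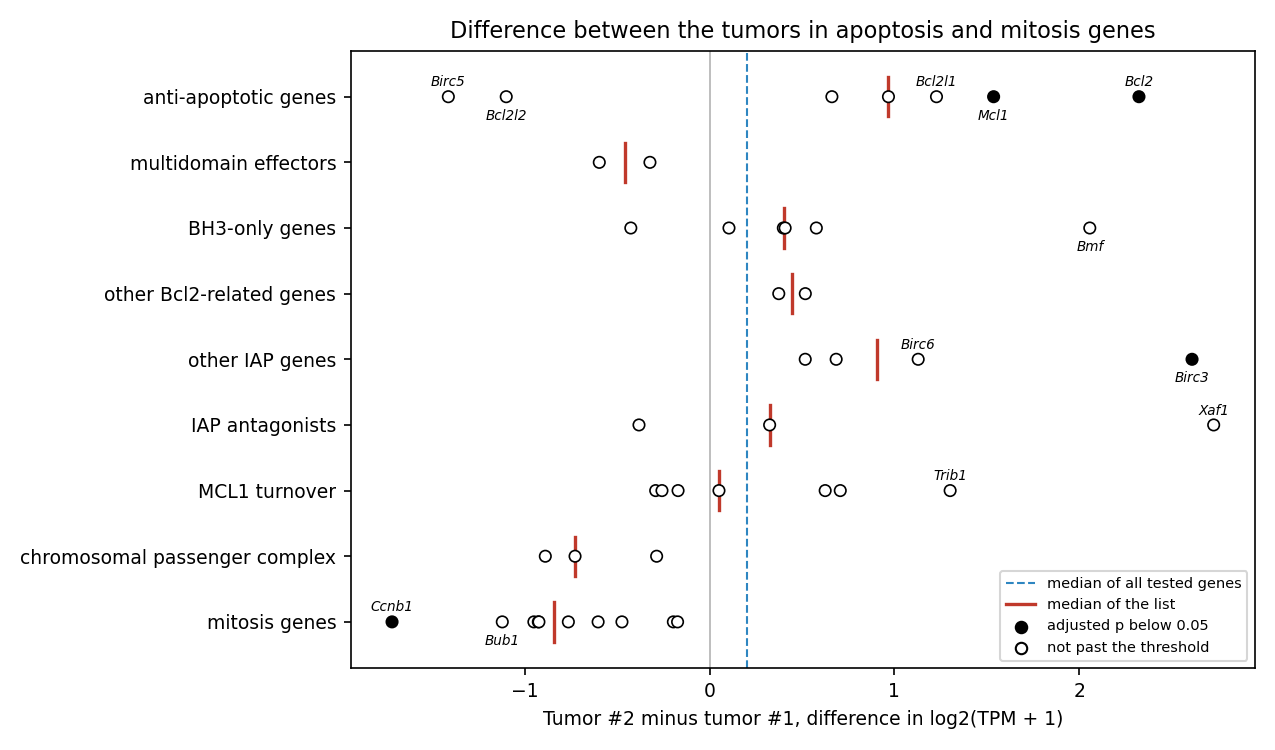
Difference in log2(TPM + 1) between tumor #2 and tumor #1 (x axis) for the tested members and the genes of 8 lists (y axis), 1 circle per gene, filled where the adjusted p was below 0.05. Red bars are list medians and the dashed line is the median of all tested genes, 0.20. The 10 mitosis genes lie below 0 and the 4 other IAP genes above it, of which *Naip2* passed the filter through tumor #2 alone.

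Position and likeness were described as measures that the choice of genes did not use. Within 1 Mb of *Mcl1*, 52 other genes were tested, and 43 of them (82.7%) had a positive difference between the tumors, against 61.8% of all tested genes. Their median was 0.79, against 0.20 over all tested genes, and 4 (7.69%) were called, against 4.33%. The median was 0.26 for the 9 neighbors of *Bcl2*, 0.056 for the 24 of *Bcl2l1*, 0.040 for the 40 of *Bcl2l2*, 0.50 for the 10 of *Bcl2a1b*, 0.83 for the 9 of *Bcl2a1a* and for the 9 of *Bcl2a1d*, 0.43 for the 21 of *Birc5* and 0.22 for the 2 of *Xiap*. The windows of *Bcl2a1a*, *Bcl2a1b* and *Bcl2a1d* overlap, and those of *Bcl2a1a* and *Bcl2a1d* both hold the member *Bcl2a1b*. The medians of these copies are therefore not separate results. The neighbors of *Birc5*, which was itself lower in tumor #2, had a median above that of all genes.

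Likeness was measured as the Euclidean distance between profiles of log2(TPM + 1) centered on their own mean over the 4 libraries, among 10078 protein-coding genes. With 4 libraries such distances only describe shape. The nearest profiles were *Ptpn5* (0.071) and *Nfkbie* (0.080) for *Mcl1*, *Myzap* and *Rnase6* (both 0.11) for *Bcl2*, *Lgals3bp* (0.087) and *Nfxl1* (0.13) for *Bcl2l1*, and *Cdk17* (0.22) and *Fam221a* (0.23) for *Bcl2l2*. For *Bcl2a1b* they were *Ccl25* (0.039) and *Gm35549* (0.054). For *Birc5* they were *Hmgb3* (0.057), at 45.4, 46.8, 19.0 and 13.7 TPM in the order of the libraries above, and the tubulin gene *Tubb4b* (0.11). *Xiap* varied too little over the libraries to be matched. Of the named profiles, *Ptpn5*, *Nfkbie*, *Myzap* and *Gm35549* reached 1 TPM in tumor #2 alone, with *Ptpn5* at 0 in both libraries of tumor #1. At such levels the shape depends on the pseudocount.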

How the data were processed

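The authors sorted B220+ IgM+ Tom+ and Tom- splenocytes of 2 mice and sequenced polyA RNA as 60-base single reads. Adaptors were removed and short reads discarded with Cutadapt, transcripts were quantified with Salmon on GRCm38, and the authors deposited TPM per gene. Per the submitters' processing notes, CASAVA 1.8 and Salmon 1.9 were used. How transcripts were summed to genes is not given in the sources used here. TPM scales each library to the same total, so that depth, and with it the counting error of a value, is unknown.

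Of the 34866 identifiers, 34652 matched GENCODE M21. Values were tested as log2(TPM + 1), which understates differences of low genes, for the 11339 genes that had a TPM of 1 or more in 2 or more libraries. limma 3.58.1 in R 4.3.3 was fitted with Tom status and tumor as terms and a variance trend (1 residual and 2.21 prior degrees of freedom). The tests were two-sided, with Benjamini-Hochberg adjustment and a threshold of 0.05. The edgeR test of paired samples that the authors used needs counts and was not run. The pairing comes from the mouse, and the Tom- and Tom+ libraries of a tumor deviated together from the group means (Pearson r = 0.626 and Spearman rho = 0.669 over 11339 genes, taken as points that depend on each other).

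The members and the gene lists were chosen with earlier results of these data known. Named were all 9 members, the called genes and the 2 genes with the largest difference of each list in each comparison, the 2 nearest profiles of each member that spanned at least 1 log2 unit, *Trp53* and *Myc*. A few of the listed genes, and 1 list, are not reported here. *Gm29094*, *Gm20521*, *D630008O14Rik*, *Pmaip1*, *Usp9x* and *Bbc3* were added after their values were seen. Promoters came from RefSeq (GRCm38.p6) and motifs were searched as exact letters on both strands. Alternatives were other pseudocounts, filters and scalings, the variance model, the block, and each tumor or cell fraction left out. The fit was tested on simulated data.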

Additional observations from a re-analysis of the deposited data

Results flagged for a closer look

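In 6 of the 7 tested members the Tom+ cells lay above the Tom- cells in 1 tumor and below them in the other, against opposite directions in 47.3% of all tested genes. Some of these signs belong to values close to 0, as for *Mcl1* (0.075 and -0.012) and for *Birc5* in tumor #1 (0.019). *Bcl2a1b* rested on 0.357 and 0 TPM in tumor #1. The count of signs is therefore not read as a trait of the members. With 1 pair per tumor the difference between the tumors was not tested. The Tom+ minus Tom- log2 difference of tumor #2 less that of tumor #1 was 1.62 for *Bcl2l1*, 0.67 for *Xiap*, 0.51 for *Bcl2a1b*, 0.43 for *Bcl2*, -0.086 for *Mcl1* and -0.51 for *Birc5*. The Tom+ cells of tumor #2 are also the library with *Jchain* at 209 TPM, and the part of that in these values was not tested.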

How the results depend on the processing

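Between Tom+ and Tom- cells 0 members were called under each of the 14 alternatives with a test. Without the tumor as a replicate block the count was also 0, and 140 genes in place of 530 had an unadjusted p below 0.05, so that leaving out the pairing changed no call. The median of the members was -0.15 and 0.28 with 1 tumor left out (0.064 with both).

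Between the tumors the count of called members, 2, went to 0 with a pseudocount of 0.1, without a filter, with a mean TPM of at least 5 (3 members tested), with quantile normalization and without a variance trend, and to 1 with a robust prior. It stayed between 2 and 3 under the other 8, but with trimmed-mean scaling the 2 were *Mcl1* and *Birc5* (adjusted p = 0.0494 in limma), and *Bcl2* was lost (adjusted p = 0.0513 in limma). The median of the members moved from 0.97 to 1.55 with a pseudocount of 0.1, to 0.49 with quantile normalization and to 0.42 in Tom- cells alone. Over all genes 491 were called. The count was 1 with a pseudocount of 0.1, without a filter or with quantile normalization, 34 with a mean TPM of at least 5, 275 without a variance trend, 740 without mitochondrially encoded genes, 964 without immunoglobulin genes, 1295 without pseudogenes and 2231 without the Tom status term. Trimmed-mean scaling gave 294 higher and 274 lower in tumor #2, against 382 and 109 with TPM as deposited. The cause of these changes was not tested.

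The Tom+ minus Tom- difference of *Bcl2* turned to -0.042 with a pseudocount of 0.1, that of *Bcl2a1b* to 0.19 with *Gm29094* summed in, and the tumor difference of *Bax* to 0.090 in Tom+ cells alone. With 1 tumor left out, the Tom+ minus Tom- difference lay between -0.15 and 0.28 for *Bcl2*, -0.46 and 1.16 for *Bcl2l1*, -0.012 and 0.075 for *Mcl1*, -0.44 and 0.066 for *Bcl2a1b*, -0.22 and 0.46 for *Xiap*, -0.50 and 0.019 for *Birc5*, -0.54 and 0.011 for *Bad*, -0.73 and 0.10 for *Bak1*, -0.13 and 0.70 for *Bax*, -0.44 and 0.039 for *Bcl2l12*, -0.22 and 0.43 for *Birc2*, -0.28 and 0.022 for *Diablo* and -0.40 and 0.54 for *Xaf1*.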
